A study of Rattus norvegicus with 9 samples.

Results

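The genes described here drive the cell cycle and DNA replication. They were chosen by gene symbol as a list of 48 genes. Of these, 47 were found among the 18006 genes with a value, out of 38490 gene entries per sample, and Cdkn2d was not analysed here. By role, 11 of the genes found act in origin licensing and at the replication fork, 4 in nucleotide supply and 9 in the step driven by cyclin E, CDK2 and E2F. Another 15 act in the G2 phase and mitosis, 5 are D cyclins or their partner kinases, and 3 are CDK inhibitors.

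The samples are RNA of RBL-2H3 cells, which grew out of a basophilic leukemia of the rat and serve widely as a mast cell model. There were 9 samples in 3 groups of 3, named Ctrl, IgE/DNP and PF, and each sample is a bulk RNA measurement. The comparison of IgE/DNP with Ctrl addresses the response to IgE and antigen, and the comparison of PF with IgE/DNP addresses the effect of the pretreatment on it. Ctrl cells carry the treatment label untreated. IgE/DNP cells received anti-DNP IgE at 50 ng/ml over 12 h, and then the antigen DNP-HSA at 100 ng/ml over 4 h. PF cells received the same IgE and antigen, with a pretreatment named PF for 1 h in between. The labels do not spell out PF. They give the antigen time in the treatment field as 4 h, 5 h and 6 h for PF replicates 1, 2 and 3, while a separate protocol field gives 4 h for all samples. That protocol field also describes sensitization and stimulation for the Ctrl samples. The labels do not say whether the replicates of a group were separate cultures.

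Values are FPKM, in which fragments are set against transcript length and the mapped total, for each gene in each sample. Their sums were 580702, 591539 and 584498 in Ctrl, 578291, 573023 and 582577 in IgE/DNP and 616992, 630069 and 610206 in PF. The PF samples thus had the highest sums, so the members were also compared under other scalings. Read depth is not given in the files and is unknown. Relative depth, read from 7 genes with low values at even steps (within 3%), ran from 0.985 to 1.019 across the samples. Genes whose steps differed by more between samples were left out, so this range cannot show larger differences in depth.

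The labelled cell type was checked against marker genes. Of 12 mast cell or basophil markers, 11 had a value, with Fcer1g, a subunit of the IgE receptor, the most abundant. Their summed FPKM was 3026, 3034 and 3007 in Ctrl, 2867, 2831 and 2848 in IgE/DNP and 3006, 3015 and 2977 in PF. These markers did not move together, and in PF versus Ctrl Fcer1a, Ms4a2, Fcer1g and Lat rose while Syk, Gata2, Mcpt2, Cpa3 and Kit fell. The labels also give the tissue as peripheral blood. Summed FPKM over 4 of 5 T cell markers was at most 10.3, nearly all of it Cd3e, which rose in PF versus Ctrl (adjusted p = 0.0459) though the samples overlapped, and Cd3d was at most 0.11. Macrophage markers (4 of 6, most abundant Csf1r) summed to at most 0.55, fibroblast markers (5 of 6, Col3a1) to at most 0.63, and epithelial markers (4 of 5, Krt8) to at most 1.15. B cell markers (3 of 5, Cd79a) reached 1.15 and erythroid markers (4 of 4, Hba-a1) 1.86. Endothelial markers (3 of 4) summed to 66.2, 69.1 and 69.5 in Ctrl, 62.6, 63.6 and 68.4 in IgE/DNP and 51.4, 55.1 and 49.95 in PF. Pecam1, an adhesion molecule that leukocytes also carry, made up most of this sum, Tek ran from 6.28 to 8.1, and Kdr was at most 0.02. The endothelial sum was lower in every PF sample than in any other sample, alongside the member genes that fell in PF, and its part in those results was not tested.

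In a dividing cell, D cyclins with CDK4 or CDK6, and then cyclin E with CDK2, release E2F factors from pocket proteins and so open the genes for DNA synthesis. Licensing factors load the MCM helicase on origins before S phase, and cyclin B with CDK1 later drives mitosis. CDK inhibitors hold these kinases back.

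The members covered a wide range of abundance. By mean FPKM over the 9 samples, 6 members were at 100 or more, 32 lay between 10 and 100, and 9 were under 10. Cdk4 had the highest mean at 201 FPKM, followed by Rrm2 at 185, Pcna at 150, Ccnd2 at 135, Top2a at 108 and Cdkn1a at 103. The lowest means were those of E2f2 at 1.19 FPKM and Ccnd1 at 1.76. Replicates of a group lay close together. The median coefficient of variation over the 47 members was 4.54% in Ctrl, 3.02% in IgE/DNP and 4.56% in PF, beside 5.51%, 4.63% and 5.46% over the 10504 genes with at least 1 FPKM in 3 samples. All 47 members passed that filter on low values and were tested in each comparison. E2f2, at 0.88, 0.87 and 1.03 FPKM in PF, passed it in the PF comparisons only because of the other group's samples.

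Changes are given as log2 fold changes of FPKM with 1 added, with their standard error, from limma with 3 samples a group. Adding 1 understates the changes of low genes such as E2f2 and Ccnd1. A gene is said to rise or fall where its p, adjusted over all genes tested, was at most 0.05. These p-values measure only the spread between these samples. Because the samples are bulk, fewer cells in a phase of the cycle and less RNA per cell cannot be told apart. The 3 comparisons share samples, so each one's own values are set side by side. In all, 3 scalings were compared, the FPKM as deposited, a scaling by median ratios and a scaling of each sample to the mean sum of FPKM.

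In IgE/DNP versus Ctrl, stimulated cells had less RNA of the CDK inhibitor genes Cdkn1b and Cdkn1a and of Cdk2, and more of the nucleotide enzyme gene Tk1. Mean Cdkn1b was 83.9 ± 6.05 FPKM in IgE/DNP and 116 ± 7.89 in Ctrl (SD, n = 3), a ratio of 0.722. Mean Cdkn1a was 0.797 times and mean Cdk2 0.747 times that in Ctrl. Mean Tk1 was 90.6 ± 0.552 FPKM in IgE/DNP and 68.9 ± 3.21 in Ctrl (SD, n = 3), a ratio of 1.31. Among 47 members, 4 rose (8.51%, beside 14.7% of the 10392 genes tested), namely Tk1, Bub1b, Mcm5 and Mybl2. Another 6 fell (12.8%, beside 14.4% of all genes), namely Cdkn1b, Cdk2, Cdkn1a, Aurka, E2f7 and Cdc25c. Both shares were below those of all genes. Without single samples, the adjusted p reached 0.0881 for Mybl2 (without IgE/DNP replicate 2), 0.111 for E2f7 (without IgE/DNP replicate 3) and 0.101 for Cdc25c (without IgE/DNP replicate 2), which are also the highest over the alternatives. The groups did not overlap for 18 members (38.3%), beside 45.8% of all genes tested. The median log2 fold change was 0.046 over the members and -0.0081 over all genes. Under scaling by median ratios 5 members rose and 6 fell, and under scaling to the mean sum 5 rose and 5 fell. For all genes, 1530 higher and 1501 lower became 1550 and 1461, and 1669 and 1279. All 47 members kept their direction under the 3 scalings, beside 95.7% of all genes.

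In PF versus IgE/DNP, pretreated cells had lower RNA of all 3 CDK inhibitors and more of Ccnd1 and Ccne1, under each of the 3 scalings. Mean Cdkn1b was 48.8 ± 2.28 FPKM in PF and 83.9 ± 6.05 in IgE/DNP (SD, n = 3), a ratio of 0.582. Mean E2f7 was 0.593 times and mean Ccne1 1.23 times that in IgE/DNP. Mean Ccnd1 was 2.48 ± 0.210 FPKM in PF and 1.47 ± 0.284 in IgE/DNP (SD, n = 3), a ratio of 1.68. In all, 6 members rose (12.8%, beside 18.1% of the 10329 genes tested) and 13 fell (27.7%, beside 30.7%). Both shares were below those of all genes. The groups did not overlap for 27 members (57.4%), beside 57.6% of all genes tested. The median log2 fold change was -0.022 over the members and -0.038 over all genes. The split depended on the scaling, with 14 members higher and 11 lower under scaling by median ratios and 2 higher and 24 lower under scaling to the mean sum. All genes moved likewise, from 1870 higher and 3172 lower to 2758 and 2600, and to 869 and 4302. The members' median was then 0.041 and -0.12, and that of all genes 0.019 and -0.13. Ccnd1 and Ccne1 rose under all 3 scalings (4.26%, beside 8.41% of all genes). Aurka, Ccnb1, Cdc25c, Cdk6, Cdkn1a, Cdkn1b, Cdkn2c, E2f2, E2f3, E2f7 and Top2a fell under all 3 (23.4%, beside 25.2%), and 30 of the 47 members kept their direction (63.8%, beside 75.6%). The E2f2 adjusted p was 0.0988 without IgE/DNP replicate 1, 0.071 without PF replicate 1 and 0.074 without PF replicate 2, in a range of 0.0103 to 0.111 over the alternatives.

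In PF versus Ctrl, the CDK inhibitors had the lowest median of the member lists, and Tk1 and Ccnd1 rose, under each of the 3 scalings. Mean Cdkn1b was 48.8 ± 2.28 FPKM in PF and 116 ± 7.89 in Ctrl (SD, n = 3), a ratio of 0.42. Mean Cdkn1a was 0.553 times and mean Tk1 1.37 times that in Ctrl. Mean Ccnd1 was 2.48 ± 0.210 FPKM in PF and 1.32 ± 0.236 in Ctrl (SD, n = 3), a ratio of 1.88. In all, 11 members rose (23.4%, beside 23.1% of the 10361 genes tested) and 14 fell (29.8%, beside 34.6%). The first share was near that of all genes and the other below it. The groups did not overlap for 32 members (68.1%), beside 64.8% of all genes tested. The median log2 fold change was -0.011 over the members and -0.047 over all genes. Under scaling by median ratios 18 members rose and 12 fell, and under scaling to the mean sum 6 rose and 18 fell. For all genes, 2389 higher and 3586 lower became 3142 and 3012, and 1575 and 4316. Median log2 fold changes were then 0.056 and -0.089 over the members, and 0.015 and -0.12 over all genes. Rising under all 3 scalings were Ccnd1, Ccne1, Mcm3, Mybl2, Orc1 and Tk1 (12.8%, beside 15.2% of all genes). Falling under all 3 were Aurka, Ccnb1, Cdc25c, Cdk2, Cdk6, Cdkn1a, Cdkn1b, Cdkn2c, E2f1, E2f3, E2f7 and E2f8 (25.5%, beside 29.1%). The Cdk6 adjusted p was 0.0644 without Ctrl replicate 1, 0.0702 without PF replicate 1 and 0.053 without PF replicate 2, in a range of 0.00994 to 0.0702 over the alternatives. Across the scalings 35 of the 47 members kept their direction (74.5%, beside 83.2%).

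**Figure D1:**
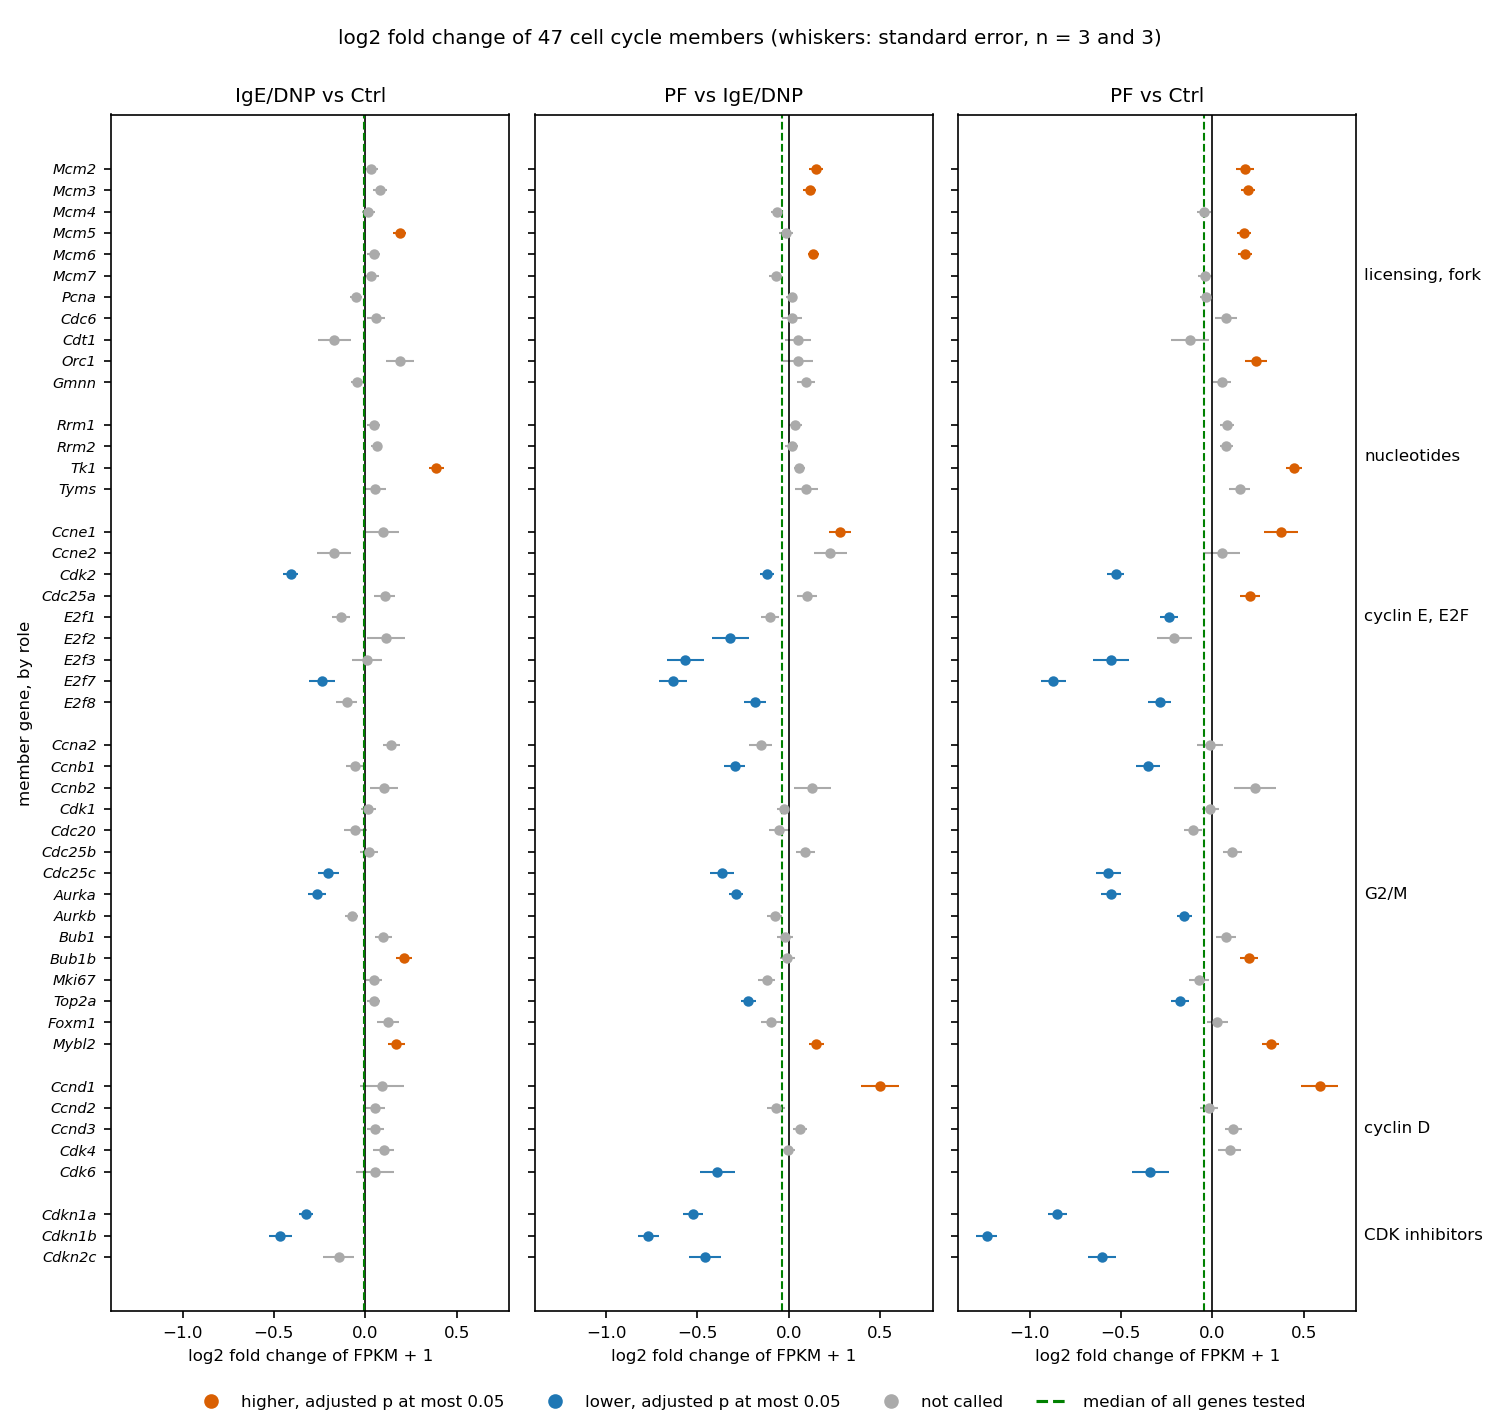
Log2 fold change (FPKM with 1 added) of the 47 members, grouped by role, in the 3 comparisons, with bars for the standard error (3 samples a group), orange for higher, blue for lower and grey for members that did not pass the test, and a dashed green line for the median of all genes. Cdkn1b lies at -0.47, -0.77 and -1.23, and Tk1 at 0.39, 0.058 and 0.45.

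**Figure D2:**
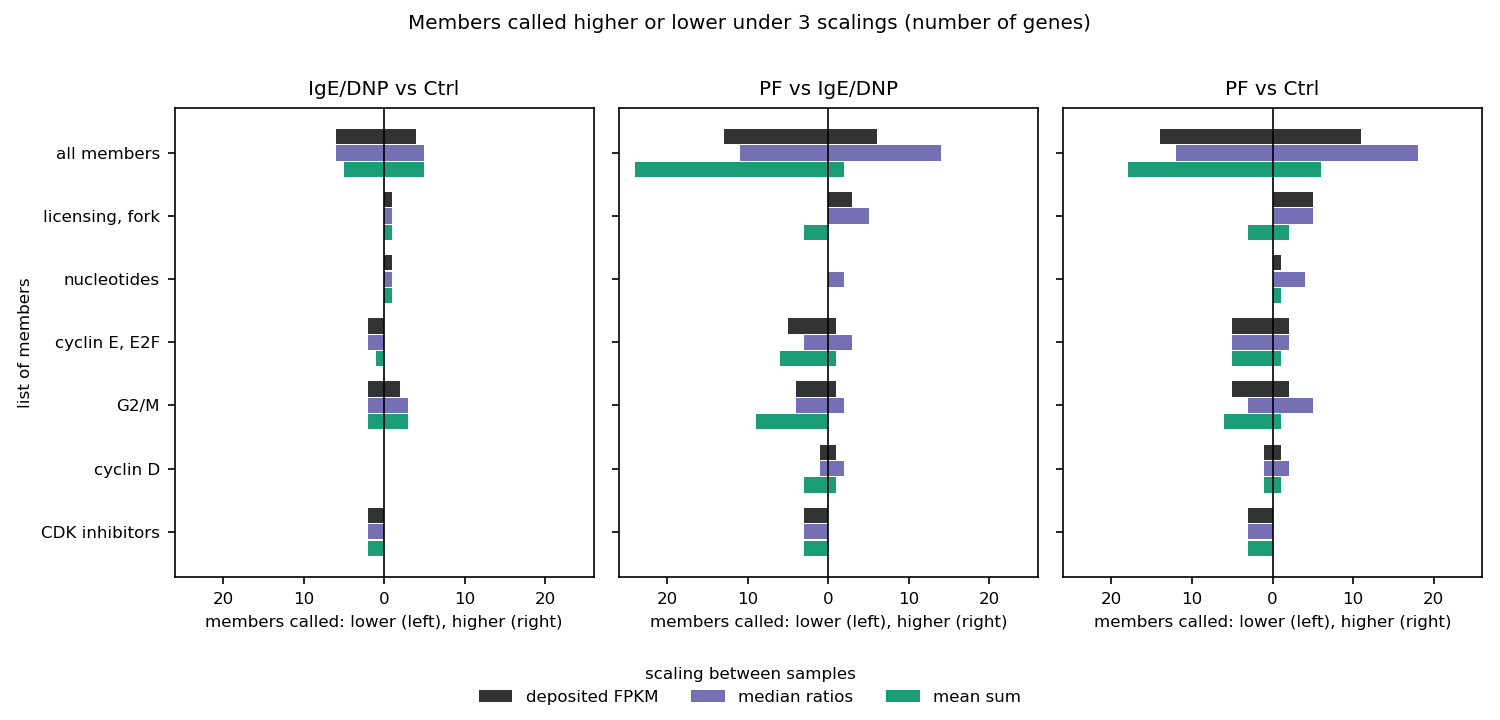
Number of members called lower (bars to the left) and higher (bars to the right) in each list under the 3 scalings, for each comparison. The 3 CDK inhibitors are all lower in both PF comparisons under each scaling, while of the 11 licensing and fork genes in PF versus IgE/DNP 3 are higher as deposited, and 3 others are lower under scaling to the mean sum.

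Some calls rest on few samples, so the values without single samples stand beside each such gene. A further setting, PF replicate 1 as the one PF sample, was chosen after seeing the data because the treatment field gives that PF replicate alone the 4 h of the IgE/DNP group. It assumes that the lone sample varies like the other group.

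The CDK inhibitors had the lowest median of the member lists in each comparison. With limma, 2 of 3 fell in IgE/DNP versus Ctrl and all 3 fell in both PF comparisons, under each of the 3 scalings, and 0 rose (0 also at an unadjusted p of at most 0.05). As deposited, 14.4%, 30.7% and 34.6% of all genes fell in IgE/DNP versus Ctrl, PF versus IgE/DNP and PF versus Ctrl. Under scaling to the mean sum, 4302 of 10320 and 4316 of 10343 genes fell in these PF comparisons. The median log2 fold change of the 3 inhibitors was -0.32 in IgE/DNP versus Ctrl, -0.52 in PF versus IgE/DNP and -0.85 in PF versus Ctrl. Cdkn1b (gene ID 83571) encodes an inhibitor of cyclin E and cyclin A complexes with CDK2. Cdkn1b measured 125, 109 and 115 FPKM in Ctrl, 90.5, 78.6 and 82.6 in IgE/DNP and 46.2, 49.8 and 50.4 in PF. Every Ctrl sample lay above every IgE/DNP sample, and every PF sample lay below both groups. The Cdkn1b log2 fold change was -0.47 ± 0.063 in IgE/DNP versus Ctrl (adjusted p = 0.00133), -0.77 ± 0.056 in PF versus IgE/DNP (adjusted p = 9.62e-06) and -1.23 ± 0.057 in PF versus Ctrl (adjusted p = 1.43e-06). Cdkn1a (gene ID 114851) encodes an inhibitor of several CDKs that p53 induces and that also binds PCNA. Cdkn1a measured 128, 134 and 131 FPKM in Ctrl, 101, 102 and 109.8 in IgE/DNP and 70.2, 78.3 and 68.8 in PF. The order was the same as for Cdkn1b, with Ctrl highest, PF lowest and no overlap between groups. The Cdkn1a log2 fold change was -0.32 ± 0.039 in IgE/DNP versus Ctrl (adjusted p = 0.000857), -0.52 ± 0.054 in PF versus IgE/DNP (adjusted p = 7.79e-05) and -0.85 ± 0.052 in PF versus Ctrl (adjusted p = 4.93e-06). Cdkn2c (gene ID 54238) encodes an inhibitor that binds CDK4 and CDK6. Cdkn2c measured 8.25, 8.72 and 9.62 FPKM in Ctrl, 8.05, 7.03 and 8.72 in IgE/DNP and 5.47, 5.09 and 5.92 in PF. Ctrl and IgE/DNP samples overlapped, and all PF samples lay below both groups. The Cdkn2c log2 fold change was -0.14 ± 0.086 in IgE/DNP versus Ctrl (adjusted p = 0.236), -0.46 ± 0.086 in PF versus IgE/DNP (adjusted p = 0.0022) and -0.60 ± 0.078 in PF versus Ctrl (adjusted p = 0.000249). Summed over the 3 inhibitors, FPKM was 261, 252 and 255 in Ctrl, 199.9, 188 and 201 in IgE/DNP and 122, 133 and 125 in PF. The groups did not overlap in this sum either.

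The cyclin D list holds the cyclins that start the cycle and the kinases they bind. In IgE/DNP versus Ctrl, limma called 0 of the 5 genes higher and 0 lower, and 0 passed an unadjusted p of at most 0.05. Of all genes, 14.7% rose and 14.4% fell there. In each PF comparison 1 rose, Ccnd1, and 1 fell, Cdk6. That is 20% each, beside 18.1% and 30.7% of all genes in PF versus IgE/DNP and 23.1% and 34.6% in PF versus Ctrl. Under scaling by median ratios 2 rose in each PF comparison, and under scaling to the mean sum 3 fell in PF versus IgE/DNP. The list's median log2 fold change was 0.055, -0.0059 and 0.095 in IgE/DNP versus Ctrl, PF versus IgE/DNP and PF versus Ctrl, and the one in PF versus IgE/DNP turned to 0.058 under scaling by median ratios. Ccnd1 (gene ID 58919) encodes cyclin D1, and it was the least abundant of the D cyclins by FPKM. Ccnd1 measured 1.52, 1.38 and 1.06 FPKM in Ctrl, 1.25, 1.37 and 1.79 in IgE/DNP and 2.26, 2.68 and 2.49 in PF. All PF samples lay above the other samples, and Ctrl and IgE/DNP overlapped. The Ccnd1 log2 fold change was 0.089 ± 0.12 in IgE/DNP versus Ctrl (adjusted p = 0.61), 0.50 ± 0.11 in PF versus IgE/DNP (adjusted p = 0.00419) and 0.59 ± 0.10 in PF versus Ctrl (adjusted p = 0.00137). For Ccnd1 in PF versus IgE/DNP, the adjusted p was 0.0914 with PF replicate 1 as the one PF sample (0.00283 to 0.0914 over the alternatives). Cdk6 (gene ID 114483) encodes a partner kinase of the D cyclins. Cdk6 measured 6.78, 5.62 and 5.26 FPKM in Ctrl, 5.93, 6.94 and 5.53 in IgE/DNP and 4.02, 4.32 and 4.97 in PF. The PF samples were the lowest, and Ctrl and IgE/DNP overlapped. The Cdk6 log2 fold change was 0.052 ± 0.10 in IgE/DNP versus Ctrl (adjusted p = 0.74), -0.39 ± 0.096 in PF versus IgE/DNP (adjusted p = 0.00904) and -0.34 ± 0.10 in PF versus Ctrl (adjusted p = 0.0197). For Cdk6 in PF versus Ctrl, the adjusted p was 0.0579 with no filter on low values, 0.0644 without Ctrl replicate 1, 0.0702 without PF replicate 1 and 0.053 without PF replicate 2 (0.00994 to 0.0702 over the alternatives). Cdk4 (gene ID 94201) encodes the other partner kinase, and it had the highest FPKM of all members. Cdk4 measured 174, 201 and 203 FPKM in Ctrl, 201, 208 and 209 in IgE/DNP and 199, 216 and 201 in PF. The groups overlapped in every comparison, with Ctrl replicate 1 below all other samples. The Cdk4 log2 fold change was 0.10 ± 0.058 in IgE/DNP versus Ctrl (adjusted p = 0.225), -0.0059 ± 0.039 in PF versus IgE/DNP (adjusted p = 0.911) and 0.095 ± 0.064 in PF versus Ctrl (adjusted p = 0.232). Cdk4 was called lower in PF versus IgE/DNP under scaling to the mean sum (adjusted p = 0.0317). Ccnd2 (gene ID 64033) encodes cyclin D2. Ccnd2 measured 141, 132 and 128 FPKM in Ctrl, 140.1, 146 and 130.5 in IgE/DNP and 133, 126 and 137 in PF. The groups overlapped in all comparisons. The Ccnd2 log2 fold change was 0.054 ± 0.052 in IgE/DNP versus Ctrl (adjusted p = 0.467), -0.071 ± 0.048 in PF versus IgE/DNP (adjusted p = 0.254) and -0.017 ± 0.049 in PF versus Ctrl (adjusted p = 0.791). Ccnd2 was called lower in PF versus IgE/DNP under scaling to the mean sum (adjusted p = 0.029). Ccnd3, the remaining D cyclin gene, ran from 31.9 to 37.7 FPKM, passed the test in 0 comparisons as deposited with 6 samples a fit, and had every PF sample above every Ctrl sample. It rose under scaling by median ratios in PF versus IgE/DNP (adjusted p = 0.0301) and PF versus Ctrl (adjusted p = 0.013), and in PF versus Ctrl with all 3 groups in 1 fit (adjusted p = 0.0404). Ccnd2 made up 80.9, 78.8 and 78% of the summed cyclin D FPKM in Ctrl, 79.6, 79.7 and 78.4% in IgE/DNP and 77.6, 75.8 and 78.2% in PF.

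The next list holds the cyclin E genes, Cdk2, Cdc25a and the E2F genes. With limma, 2 of its 9 genes fell and 0 rose in IgE/DNP versus Ctrl (3 lower and 0 higher at an unadjusted p of at most 0.05), and 1 fell under scaling to the mean sum. In PF versus IgE/DNP 1 rose and 5 fell, against 3 and 3 under scaling by median ratios and 1 and 6 under scaling to the mean sum. In PF versus Ctrl 2 rose and 5 fell, against 2 and 5, and 1 and 5, under these scalings. As deposited, 0%, 11.1% and 22.2% of the list rose and 22.2%, 55.6% and 55.6% fell in the 3 comparisons. Among all genes, 14.7%, 18.1% and 23.1% rose and 14.4%, 30.7% and 34.6% fell. The list's median log2 fold change was -0.10, -0.12 and -0.24 in the 3 comparisons in the same order, and it was below 0 under every scaling. Cdk2 (gene ID 362817) encodes the kinase that cyclins E and A activate. Cdk2 measured 42.8, 42.3 and 39.5 FPKM in Ctrl, 31.4, 31.4 and 30.4 in IgE/DNP and 28.8, 28.9 and 27.8 in PF. The Ctrl samples stood far above the rest, and the PF samples lay just below the IgE/DNP samples without overlap. The Cdk2 log2 fold change was -0.41 ± 0.043 in IgE/DNP versus Ctrl (adjusted p = 0.000455), -0.12 ± 0.039 in PF versus IgE/DNP (adjusted p = 0.0298) and -0.53 ± 0.046 in PF versus Ctrl (adjusted p = 2.86e-05). For Cdk2 in PF versus IgE/DNP, the adjusted p was 0.236 under scaling by median ratios, 0.0916 without IgE/DNP replicate 1, 0.0945 without IgE/DNP replicate 2, 0.0559 without PF replicate 1, 0.072 without PF replicate 3 and 0.172 with PF replicate 1 as the one PF sample (0.00217 to 0.236 over the alternatives). Ccne1 (gene ID 25729) encodes cyclin E1. Ccne1 measured 9.74, 11.8 and 8.96 FPKM in Ctrl, 10.5, 11.3 and 10.8 in IgE/DNP and 12.7, 14.3 and 13.3 in PF. All PF samples lay above the other samples, and Ctrl and IgE/DNP overlapped. The Ccne1 log2 fold change was 0.096 ± 0.090 in IgE/DNP versus Ctrl (adjusted p = 0.458), 0.28 ± 0.059 in PF versus IgE/DNP (adjusted p = 0.00422) and 0.38 ± 0.094 in PF versus Ctrl (adjusted p = 0.00839). For Ccne1 in PF versus IgE/DNP, the adjusted p was 0.085 with PF replicate 1 as the one PF sample (0.0016 to 0.085 over the alternatives). For Ccne1 in PF versus Ctrl, the adjusted p was 0.136 with PF replicate 1 as the one PF sample (0.00136 to 0.136 over the alternatives). Cdc25a (gene ID 171102) encodes a phosphatase that activates CDK2. Cdc25a measured 12.8, 12.5 and 11.8 FPKM in Ctrl, 12.6, 14.02 and 13.5 in IgE/DNP and 14.95, 14.1 and 14.1 in PF. The PF samples lay above all others, by a narrow margin over IgE/DNP, and Ctrl and IgE/DNP overlapped. The Cdc25a log2 fold change was 0.11 ± 0.057 in IgE/DNP versus Ctrl (adjusted p = 0.198), 0.099 ± 0.055 in PF versus IgE/DNP (adjusted p = 0.17) and 0.20 ± 0.055 in PF versus Ctrl (adjusted p = 0.0115). For Cdc25a in PF versus Ctrl, the adjusted p was 0.0872 under scaling to the mean sum and 0.0524 with PF replicate 1 as the one PF sample (0.00273 to 0.0872 over the alternatives). Cdc25a was called higher in PF versus IgE/DNP under scaling by median ratios (adjusted p = 0.0349). The other cyclin E gene, Ccne2, ran from 3.52 to 5.1 FPKM and passed the test in 0 comparisons as deposited. It rose in PF versus IgE/DNP under scaling by median ratios (adjusted p = 0.0274). Without IgE/DNP replicate 1, Ccne2 passed the test in PF versus IgE/DNP with a log2 fold change of 0.28 and an adjusted p of 0.0494 (0.0274 to 0.478 over the alternatives).

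Among the E2F genes, E2f1, E2f2 and E2f3 encode activators, while E2f7 and E2f8 encode atypical repressors. E2f7 (gene ID 314818) acts on E2F target genes late in S phase. E2f7 measured 8.76, 8.02 and 8.11 FPKM in Ctrl, 6.82, 7.46 and 6.4 in IgE/DNP and 3.9, 4.02 and 4.34 in PF. Every Ctrl sample lay above every IgE/DNP sample, and every PF sample lay below both groups. The E2f7 log2 fold change was -0.24 ± 0.070 in IgE/DNP versus Ctrl (adjusted p = 0.0346), -0.63 ± 0.075 in PF versus IgE/DNP (adjusted p = 0.000172) and -0.87 ± 0.068 in PF versus Ctrl (adjusted p = 1.70e-05). For E2f7 in IgE/DNP versus Ctrl, the adjusted p was 0.0792 with no filter on low values, 0.0573 under scaling to the mean sum, 0.0996 without Ctrl replicate 1, 0.0594 without Ctrl replicate 2, 0.0569 without Ctrl replicate 3, 0.0892 without IgE/DNP replicate 1 and 0.111 without IgE/DNP replicate 3 (0.0253 to 0.111 over the alternatives). E2f3 (gene ID 291105) belongs to the activators. E2f3 measured 4.61, 5.01 and 4.39 FPKM in Ctrl, 4.42, 5.25 and 4.49 in IgE/DNP and 3.22, 2.4 and 3 in PF. The PF samples lay below all others, and Ctrl and IgE/DNP overlapped. The E2f3 log2 fold change was 0.011 ± 0.082 in IgE/DNP versus Ctrl (adjusted p = 0.929), -0.57 ± 0.10 in PF versus IgE/DNP (adjusted p = 0.00175) and -0.55 ± 0.097 in PF versus Ctrl (adjusted p = 0.00137). E2f2 (gene ID 684111) was the least abundant member by FPKM. E2f2 measured 1.1, 1.19 and 1.39 FPKM in Ctrl, 1.65, 1.26 and 1.32 in IgE/DNP and 0.88, 0.87 and 1.03 in PF. The PF samples lay below all others, and Ctrl and IgE/DNP overlapped. The E2f2 log2 fold change was 0.11 ± 0.10 in IgE/DNP versus Ctrl (adjusted p = 0.446), -0.32 ± 0.10 in PF versus IgE/DNP (adjusted p = 0.0272) and -0.21 ± 0.096 in PF versus Ctrl (adjusted p = 0.0928). For E2f2 in PF versus IgE/DNP, the adjusted p was 0.0988 without IgE/DNP replicate 1, 0.071 without PF replicate 1, 0.074 without PF replicate 2 and 0.111 with PF replicate 1 as the one PF sample (0.0103 to 0.111 over the alternatives). E2f2 was called lower in PF versus Ctrl from limma without a trend (adjusted p = 0.0293). E2f1 (gene ID 399489) was the most abundant of the activator genes by FPKM. E2f1 measured 14.2, 14.7 and 14.4 FPKM in Ctrl, 13.2, 13.4 and 12.7 in IgE/DNP and 12.1, 12 and 12.2 in PF. Ctrl was highest and PF lowest with no overlap. The E2f1 log2 fold change was -0.13 ± 0.047 in IgE/DNP versus Ctrl (adjusted p = 0.0653), -0.10 ± 0.048 in PF versus IgE/DNP (adjusted p = 0.108) and -0.24 ± 0.048 in PF versus Ctrl (adjusted p = 0.0029). For E2f1 in PF versus Ctrl, the adjusted p was 0.0532 with PF replicate 1 as the one PF sample (0.000847 to 0.0532 over the alternatives). E2f1 was called lower in IgE/DNP versus Ctrl with all 3 groups in 1 fit (adjusted p = 0.0416) and lower in PF versus IgE/DNP under scaling to the mean sum (adjusted p = 0.0149). E2f8 (gene ID 308607) is the partner repressor of E2f7. E2f8 measured 8.55, 9.21 and 8.74 FPKM in Ctrl, 7.9, 8.23 and 8.36 in IgE/DNP and 7.19, 7.29 and 6.69 in PF. Here too Ctrl was highest and PF lowest, with no overlap. The E2f8 log2 fold change was -0.10 ± 0.057 in IgE/DNP versus Ctrl (adjusted p = 0.212), -0.19 ± 0.060 in PF versus IgE/DNP (adjusted p = 0.0301) and -0.29 ± 0.062 in PF versus Ctrl (adjusted p = 0.00403). For E2f8 in PF versus IgE/DNP, the adjusted p was 0.0533 with no filter on low values, 0.101 under scaling by median ratios, 0.0786 without IgE/DNP replicate 2, 0.0877 without IgE/DNP replicate 3, 0.0565 without PF replicate 1, 0.085 without PF replicate 3 and 0.186 with PF replicate 1 as the one PF sample (0.00498 to 0.186 over the alternatives). For E2f8 in PF versus Ctrl, the adjusted p was 0.063 with PF replicate 1 as the one PF sample (0.00102 to 0.063 over the alternatives).

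The licensing and fork list holds MCM helicase subunits, their loading factors, geminin and the sliding clamp. By limma, 1 of its 11 genes rose in IgE/DNP versus Ctrl (9.09%, beside 14.7% of all genes). In PF versus IgE/DNP 3 rose (27.3%, beside 18.1%), and in PF versus Ctrl 5 rose (45.5%, beside 23.1%). In each comparison 0 fell (0 also at an unadjusted p of at most 0.05), beside 14.4%, 30.7% and 34.6% of all genes. The PF results depended on the scaling. Under scaling by median ratios, 5 rose and 0 fell in each PF comparison. Under scaling to the mean sum, 0 rose and 3 fell (Mcm4, Mcm5 and Mcm7) in PF versus IgE/DNP, and 2 rose and 3 fell in PF versus Ctrl. The median log2 fold change was 0.033, 0.048 and 0.076 in IgE/DNP versus Ctrl, PF versus IgE/DNP and PF versus Ctrl, and under scaling to the mean sum the PF medians turned to -0.045 and -0.0022.

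Among the subunits of the MCM helicase, the ring that unwinds DNA at the fork, 4 passed the test in some comparison. Mcm5 (gene ID 291885) encodes a subunit of this ring. Mcm5 measured 45.5, 46.3 and 46.04 FPKM in Ctrl, 51.3, 54.1 and 51.98 in IgE/DNP and 53.2, 52.3 and 50.4 in PF. The Ctrl samples lay below all others, and IgE/DNP and PF overlapped. The Mcm5 log2 fold change was 0.19 ± 0.035 in IgE/DNP versus Ctrl (adjusted p = 0.00576), -0.014 ± 0.038 in PF versus IgE/DNP (adjusted p = 0.787) and 0.17 ± 0.038 in PF versus Ctrl (adjusted p = 0.0046). For Mcm5 in PF versus Ctrl, the adjusted p was 0.0676 under scaling to the mean sum (0.000984 to 0.0676 over the alternatives). Mcm5 was called lower in PF versus IgE/DNP under scaling to the mean sum (adjusted p = 0.0466). Mcm2 (gene ID 312538) encodes another subunit, which also binds histones. Mcm2 measured 44.2, 47.5 and 43.7 FPKM in Ctrl, 45.9, 46.5 and 46.01 in IgE/DNP and 52.8, 52.2 and 48.8 in PF. The PF samples lay above all others, and Ctrl and IgE/DNP overlapped. The Mcm2 log2 fold change was 0.032 ± 0.041 in IgE/DNP versus Ctrl (adjusted p = 0.593), 0.15 ± 0.040 in PF versus IgE/DNP (adjusted p = 0.0136) and 0.18 ± 0.049 in PF versus Ctrl (adjusted p = 0.0132). For Mcm2 in PF versus IgE/DNP, the adjusted p was 0.321 under scaling to the mean sum and 0.0515 without PF replicate 1 (0.0029 to 0.321 over the alternatives). For Mcm2 in PF versus Ctrl, the adjusted p was 0.0937 under scaling to the mean sum and 0.0521 without PF replicate 1 (0.003 to 0.0937 over the alternatives). Mcm6 (gene ID 29685) encodes a further subunit of the ring. Mcm6 measured 70.95, 74.5 and 75.9 FPKM in Ctrl, 75, 76.4 and 77.01 in IgE/DNP and 84.4, 83.2 and 83.5 in PF. The PF samples were again the highest, with overlap between Ctrl and IgE/DNP. The Mcm6 log2 fold change was 0.045 ± 0.036 in IgE/DNP versus Ctrl (adjusted p = 0.379), 0.13 ± 0.030 in PF versus IgE/DNP (adjusted p = 0.00574) and 0.18 ± 0.038 in PF versus Ctrl (adjusted p = 0.00389). For Mcm6 in PF versus IgE/DNP, the adjusted p was 0.399 under scaling to the mean sum (0.000845 to 0.399 over the alternatives). For Mcm6 in PF versus Ctrl, the adjusted p was 0.059 under scaling to the mean sum and 0.0509 with PF replicate 1 as the one PF sample (0.000807 to 0.059 over the alternatives). Mcm3 (gene ID 316273) encodes the subunit that partners MCM5. Mcm3 measured 34.8, 35.01 and 35.9 FPKM in Ctrl, 36.3, 37.8 and 37.9 in IgE/DNP and 40.2, 40.9 and 40.4 in PF. Ctrl was lowest and PF highest, and the groups did not overlap. The Mcm3 log2 fold change was 0.082 ± 0.037 in IgE/DNP versus Ctrl (adjusted p = 0.132), 0.11 ± 0.036 in PF versus IgE/DNP (adjusted p = 0.0275) and 0.20 ± 0.038 in PF versus Ctrl (adjusted p = 0.00232). For Mcm3 in PF versus IgE/DNP, the adjusted p was 0.749 under scaling to the mean sum, 0.0529 from limma without a trend, 0.106 without IgE/DNP replicate 1, 0.056 without IgE/DNP replicate 2, 0.0557 without PF replicate 1, 0.0668 without PF replicate 2 and 0.171 with PF replicate 1 as the one PF sample (0.00362 to 0.749 over the alternatives). For Mcm3 in PF versus Ctrl, the adjusted p was 0.058 with PF replicate 1 as the one PF sample (0.000545 to 0.058 over the alternatives).

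Orc1 (gene ID 313479) encodes the largest subunit of the origin recognition complex. Orc1 measured 8.95, 8.65 and 8.88 FPKM in Ctrl, 10.7, 8.99 and 11.03 in IgE/DNP and 11.2, 10.7 and 9.92 in PF. The Ctrl samples lay below all others, and IgE/DNP and PF overlapped. The Orc1 log2 fold change was 0.19 ± 0.076 in IgE/DNP versus Ctrl (adjusted p = 0.0975), 0.051 ± 0.081 in PF versus IgE/DNP (adjusted p = 0.632) and 0.24 ± 0.061 in PF versus Ctrl (adjusted p = 0.00932). Without IgE/DNP replicate 2, Orc1 passed the test in IgE/DNP versus Ctrl with a log2 fold change of 0.27 and an adjusted p of 0.0216 (0.0216 to 0.271 over the alternatives). Pcna (gene ID 25737) encodes the sliding clamp of the replicative polymerases. Pcna measured 150.4, 159 and 150.2 FPKM in Ctrl, 148, 147 and 148 in IgE/DNP and 148, 149 and 151 in PF. IgE/DNP samples lay below every Ctrl sample, and the PF samples overlapped both groups. The Pcna log2 fold change was -0.049 ± 0.033 in IgE/DNP versus Ctrl (adjusted p = 0.297), 0.015 ± 0.028 in PF versus IgE/DNP (adjusted p = 0.678) and -0.033 ± 0.036 in PF versus Ctrl (adjusted p = 0.456). Pcna was called higher in PF versus IgE/DNP under scaling by median ratios (adjusted p = 0.0463) and lower in PF versus Ctrl under scaling to the mean sum (adjusted p = 0.0277). Mcm7 (gene ID 288532) encodes a subunit of the MCM ring. Mcm7 measured 91.3, 96.7 and 91.1 FPKM in Ctrl, 91.7, 99.1 and 94.9 in IgE/DNP and 88.7, 91.3 and 91.6 in PF. The PF samples lay below every IgE/DNP sample, and the Ctrl samples overlapped both groups. The Mcm7 log2 fold change was 0.033 ± 0.041 in IgE/DNP versus Ctrl (adjusted p = 0.578), -0.072 ± 0.037 in PF versus IgE/DNP (adjusted p = 0.142) and -0.039 ± 0.039 in PF versus Ctrl (adjusted p = 0.42). Mcm7 was called lower in PF versus IgE/DNP under scaling to the mean sum (adjusted p = 0.00699) and lower in PF versus Ctrl under scaling to the mean sum (adjusted p = 0.0292). The remaining licensing genes passed the test in 0 comparisons with the FPKM as deposited. Mcm4, the last subunit, ran from 58.5 to 62.7 FPKM, and Cdc6, which loads the ring, from 31.4 to 37.4. Mcm4 fell under scaling to the mean sum in PF versus IgE/DNP (adjusted p = 0.00728) and PF versus Ctrl (adjusted p = 0.0319). Cdt1, which also loads it, ran from 12.9 to 17.9 FPKM. Without Ctrl replicate 3, Cdt1 passed the test in IgE/DNP versus Ctrl with a log2 fold change of -0.27 and an adjusted p of 0.0208 (0.0208 to 0.503 over the alternatives). Gmnn, whose product geminin blocks CDT1, ran from 73 to 83.8 FPKM, and rose under scaling by median ratios in PF versus IgE/DNP (adjusted p = 0.0305). Without PF replicate 1, Gmnn passed the test in PF versus IgE/DNP with a log2 fold change of 0.15 and an adjusted p of 0.0256 (0.0256 to 0.962 over the alternatives).

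The nucleotide supply list holds the enzymes that make deoxynucleotides. By limma, 1 of its 4 genes rose in IgE/DNP versus Ctrl and in PF versus Ctrl, and 0 fell. This was 25% higher, beside 14.7% and 23.1% of all genes, of which 14.4% and 34.6% fell. In PF versus IgE/DNP 0 rose and 0 fell (0 and 0 at an unadjusted p of at most 0.05), beside 18.1% and 30.7% of all genes. Under scaling by median ratios, 2 rose in PF versus IgE/DNP and all 4 in PF versus Ctrl. Their median log2 fold change was 0.058, 0.047 and 0.12 in IgE/DNP versus Ctrl, PF versus IgE/DNP and PF versus Ctrl, and under scaling to the mean sum the one in PF versus IgE/DNP turned to -0.051. Tk1 (gene ID 24834) encodes the thymidine kinase of dividing cells. Tk1 measured 66.1, 68.3 and 72.4 FPKM in Ctrl, 90.6, 89.98 and 91.1 in IgE/DNP and 93.3, 95.6 and 93.9 in PF. The Ctrl samples stood apart below all others, and the PF samples lay just above the IgE/DNP samples. The Tk1 log2 fold change was 0.39 ± 0.039 in IgE/DNP versus Ctrl (adjusted p = 0.000393), 0.058 ± 0.030 in PF versus IgE/DNP (adjusted p = 0.139) and 0.45 ± 0.042 in PF versus Ctrl (adjusted p = 4.64e-05). Tk1 was called higher in PF versus IgE/DNP under scaling by median ratios (adjusted p = 0.0109). Rrm2 (gene ID 362720) encodes the small subunit of ribonucleotide reductase. Rrm2 measured 179, 176 and 181 FPKM in Ctrl, 191, 184 and 185 in IgE/DNP and 183, 188 and 195 in PF. The Ctrl samples lay below all others, and IgE/DNP and PF overlapped. The Rrm2 log2 fold change was 0.062 ± 0.031 in IgE/DNP versus Ctrl (adjusted p = 0.163), 0.016 ± 0.034 in PF versus IgE/DNP (adjusted p = 0.731) and 0.077 ± 0.037 in PF versus Ctrl (adjusted p = 0.1). Rrm2 was called higher in PF versus Ctrl under scaling by median ratios (adjusted p = 0.00894). Rrm1, which encodes the large subunit, ran from 74.1 to 81.8 FPKM, and Tyms, which encodes thymidylate synthase, from 25.9 to 31.8. Scaled by median ratios, Rrm1 rose in PF versus IgE/DNP (adjusted p = 0.0484) and PF versus Ctrl (adjusted p = 0.0107), and Tyms in PF versus Ctrl (adjusted p = 0.0103). Without PF replicate 2, Tyms passed the test in PF versus Ctrl with a log2 fold change of 0.20 and an adjusted p of 0.0181 (0.0103 to 0.375 over the alternatives).

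The list for G2 and mitosis holds mitotic cyclins, kinases, phosphatases, spindle checkpoint genes and the factors that switch them on. In IgE/DNP versus Ctrl 2 of its 15 genes rose and 2 fell, against 3 and 2 under both other scalings. In PF versus IgE/DNP 1 rose and 4 fell, against 2 and 4 under scaling by median ratios and 0 and 9 under scaling to the mean sum. In PF versus Ctrl 2 rose and 5 fell, which turned to 5 and 3 under scaling by median ratios and was 1 and 6 under scaling to the mean sum. As deposited, 13.3%, 6.67% and 13.3% of the list rose and 13.3%, 26.7% and 33.3% fell in the 3 comparisons. Among all genes, 14.7%, 18.1% and 23.1% rose and 14.4%, 30.7% and 34.6% fell. Scaled to the mean sum, 869 of 10320 genes rose and 4302 fell in PF versus IgE/DNP. The list's median log2 fold change was 0.046, -0.078 and -0.012 in these comparisons, and the last one turned to 0.054 under scaling by median ratios.

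The kinases, cyclins and phosphatases of mitotic entry come first. Aurka (gene ID 261730) encodes a kinase of centrosomes and the spindle. Aurka measured 45.1, 41.3 and 46.8 FPKM in Ctrl, 35.8, 37.3 and 37.1 in IgE/DNP and 30.7, 30.2 and 28.9 in PF. Every Ctrl sample lay above every IgE/DNP sample, and every PF sample lay below both groups. The Aurka log2 fold change was -0.27 ± 0.050 in IgE/DNP versus Ctrl (adjusted p = 0.006), -0.29 ± 0.040 in PF versus IgE/DNP (adjusted p = 0.000436) and -0.55 ± 0.054 in PF versus Ctrl (adjusted p = 5.43e-05). Aurkb (gene ID 114592) encodes a kinase of the centromere and midzone. Aurkb measured 50.4, 48.3 and 50.3 FPKM in Ctrl, 47.7, 47.7 and 45.9 in IgE/DNP and 45.5, 42.7 and 45.6 in PF. Ctrl was highest and PF lowest without overlap, over a narrower range than for Aurka. The Aurkb log2 fold change was -0.074 ± 0.036 in IgE/DNP versus Ctrl (adjusted p = 0.159), -0.078 ± 0.040 in PF versus IgE/DNP (adjusted p = 0.137) and -0.15 ± 0.043 in PF versus Ctrl (adjusted p = 0.0151). For Aurkb in PF versus Ctrl, the adjusted p was 0.109 under scaling by median ratios, 0.0536 without PF replicate 2 and 0.161 with PF replicate 1 as the one PF sample (0.00423 to 0.161 over the alternatives). Aurkb was called lower in PF versus IgE/DNP under scaling to the mean sum (adjusted p = 0.013). Cdc25c (gene ID 307511) encodes the phosphatase that activates CDK1 at mitotic entry. Cdc25c measured 14.1, 13.1 and 12.7 FPKM in Ctrl, 11.2, 11.04 and 11.98 in IgE/DNP and 8.03, 8.57 and 9.32 in PF. All Ctrl samples lay above every IgE/DNP sample, and the PF samples were the lowest. The Cdc25c log2 fold change was -0.20 ± 0.059 in IgE/DNP versus Ctrl (adjusted p = 0.0324), -0.37 ± 0.066 in PF versus IgE/DNP (adjusted p = 0.00177) and -0.57 ± 0.069 in PF versus Ctrl (adjusted p = 0.000176). For Cdc25c in IgE/DNP versus Ctrl, the adjusted p was 0.0626 with no filter on low values, 0.0919 without Ctrl replicate 1, 0.0634 without Ctrl replicate 2, 0.0923 without IgE/DNP replicate 1 and 0.101 without IgE/DNP replicate 2 (0.0313 to 0.101 over the alternatives). Ccnb1 (gene ID 25203) encodes cyclin B1. Ccnb1 measured 27.7, 27.5 and 30.3 FPKM in Ctrl, 27.9, 27.4 and 26.7 in IgE/DNP and 20.5, 21.8 and 23.99 in PF. All PF samples were below the others, and Ctrl and IgE/DNP overlapped. The Ccnb1 log2 fold change was -0.055 ± 0.048 in IgE/DNP versus Ctrl (adjusted p = 0.421), -0.30 ± 0.058 in PF versus IgE/DNP (adjusted p = 0.00264) and -0.35 ± 0.066 in PF versus Ctrl (adjusted p = 0.00197).

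Further members of the list act on chromosomes or on transcription. Bub1b (gene ID 171576) encodes a kinase-like protein of the spindle checkpoint. Bub1b measured 18.1, 16.9 and 18.02 FPKM in Ctrl, 20.5, 20.7 and 20.6 in IgE/DNP and 20.01, 20.9 and 20.5 in PF. The Ctrl samples lay below all others, and IgE/DNP and PF overlapped. The Bub1b log2 fold change was 0.21 ± 0.045 in IgE/DNP versus Ctrl (adjusted p = 0.00922), -0.0091 ± 0.041 in PF versus IgE/DNP (adjusted p = 0.869) and 0.20 ± 0.049 in PF versus Ctrl (adjusted p = 0.0068). For Bub1b in PF versus Ctrl, the adjusted p was 0.0684 under scaling to the mean sum and 0.128 with PF replicate 1 as the one PF sample (0.00172 to 0.128 over the alternatives). Mybl2 (gene ID 296344) encodes a factor that joins the MuvB complex to switch on mitotic genes. Mybl2 measured 25.6, 27.8 and 26.9 FPKM in Ctrl, 29.3, 31.3 and 30.04 in IgE/DNP and 34.5, 33.5 and 32.9 in PF. Ctrl was lowest and PF highest, and the groups did not overlap. The Mybl2 log2 fold change was 0.17 ± 0.046 in IgE/DNP versus Ctrl (adjusted p = 0.0246), 0.15 ± 0.041 in PF versus IgE/DNP (adjusted p = 0.0146) and 0.32 ± 0.046 in PF versus Ctrl (adjusted p = 0.000466). For Mybl2 in IgE/DNP versus Ctrl, the adjusted p was 0.0665 without Ctrl replicate 1, 0.0881 without IgE/DNP replicate 2 and 0.063 without IgE/DNP replicate 3 (0.0134 to 0.0881 over the alternatives). For Mybl2 in PF versus IgE/DNP, the adjusted p was 0.353 under scaling to the mean sum, 0.0594 without IgE/DNP replicate 1 and 0.0537 without PF replicate 1 (0.00242 to 0.353 over the alternatives). Top2a (gene ID 360243) encodes the topoisomerase that untangles chromosomes. Top2a measured 115, 107 and 113 FPKM in Ctrl, 113, 117 and 116 in IgE/DNP and 94.96, 96.5 and 105 in PF. All PF samples were below the others, and Ctrl and IgE/DNP overlapped. The Top2a log2 fold change was 0.046 ± 0.037 in IgE/DNP versus Ctrl (adjusted p = 0.39), -0.22 ± 0.042 in PF versus IgE/DNP (adjusted p = 0.00224) and -0.18 ± 0.049 in PF versus Ctrl (adjusted p = 0.0137). For Top2a in PF versus Ctrl, the adjusted p was 0.0806 under scaling by median ratios and 0.0549 without PF replicate 1 (0.00389 to 0.0806 over the alternatives). Mki67 (gene ID 291234) encodes a surface protein of mitotic chromosomes and a marker of cycling cells. Mki67 measured 96.6, 90.4 and 87.7 FPKM in Ctrl, 93.6, 97.8 and 92.4 in IgE/DNP and 90.1, 81 and 89.8 in PF. The PF samples lay below every IgE/DNP sample, and the Ctrl samples overlapped both groups. The Mki67 log2 fold change was 0.048 ± 0.044 in IgE/DNP versus Ctrl (adjusted p = 0.446), -0.12 ± 0.047 in PF versus IgE/DNP (adjusted p = 0.0595) and -0.074 ± 0.055 in PF versus Ctrl (adjusted p = 0.274). Mki67 was called lower in PF versus IgE/DNP under scaling to the mean sum (adjusted p = 0.00854). Without PF replicate 3, Mki67 passed the test in PF versus IgE/DNP with a log2 fold change of -0.15 and an adjusted p of 0.0472 (0.00854 to 0.298 over the alternatives).

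With the FPKM as deposited and all samples, the other 7 genes of this list passed the test in 0 comparisons. Scaled by median ratios, Ccna2 rose in IgE/DNP versus Ctrl (adjusted p = 0.0491), Cdc25b in PF versus IgE/DNP (adjusted p = 0.0317), and Cdc25b (adjusted p = 0.015), Bub1 (adjusted p = 0.0491) and Ccnb2 (adjusted p = 0.0499) in PF versus Ctrl. Under scaling to the mean sum, Ccna2 rose in IgE/DNP versus Ctrl (adjusted p = 0.0384), Ccna2 (adjusted p = 0.0136), Cdk1 (adjusted p = 0.0161) and Foxm1 (adjusted p = 0.0259) fell in PF versus IgE/DNP, and Cdc20 fell in PF versus Ctrl (adjusted p = 0.0213). Ccna2, which encodes cyclin A2, ran from 32.7 to 41.2 FPKM, and Ccnb2, which encodes cyclin B2, from 10.7 to 16.99. Without Ctrl replicate 3, Ccna2 passed the test in IgE/DNP versus Ctrl with a log2 fold change of 0.18 and an adjusted p of 0.0315 (0.0315 to 0.166 over the alternatives). Without PF replicate 3, Ccna2 passed the test in PF versus IgE/DNP with a log2 fold change of -0.23 and an adjusted p of 0.00654 (0.00654 to 0.246 over the alternatives). With PF replicate 1 as the one PF sample, its log2 fold change in that comparison was -0.27. Cdk1, the kinase gene of mitotic entry, ran from 47.2 to 51.1 FPKM, with overlap between all groups. Cdc20, which activates the anaphase ligase, ran from 14.1 to 16.3 FPKM, and Cdc25b, a phosphatase gene, from 13.4 to 15.3. Foxm1, which encodes an activator of mitotic genes, ran from 10.4 to 12.3 FPKM. Bub1, a checkpoint kinase gene, ran from 41.1 to 48.2 FPKM. Without Ctrl replicate 3, Bub1 passed the test in IgE/DNP versus Ctrl with a log2 fold change of 0.14 and an adjusted p of 0.0429 (0.0429 to 0.352 over the alternatives).

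**Figure D3:**
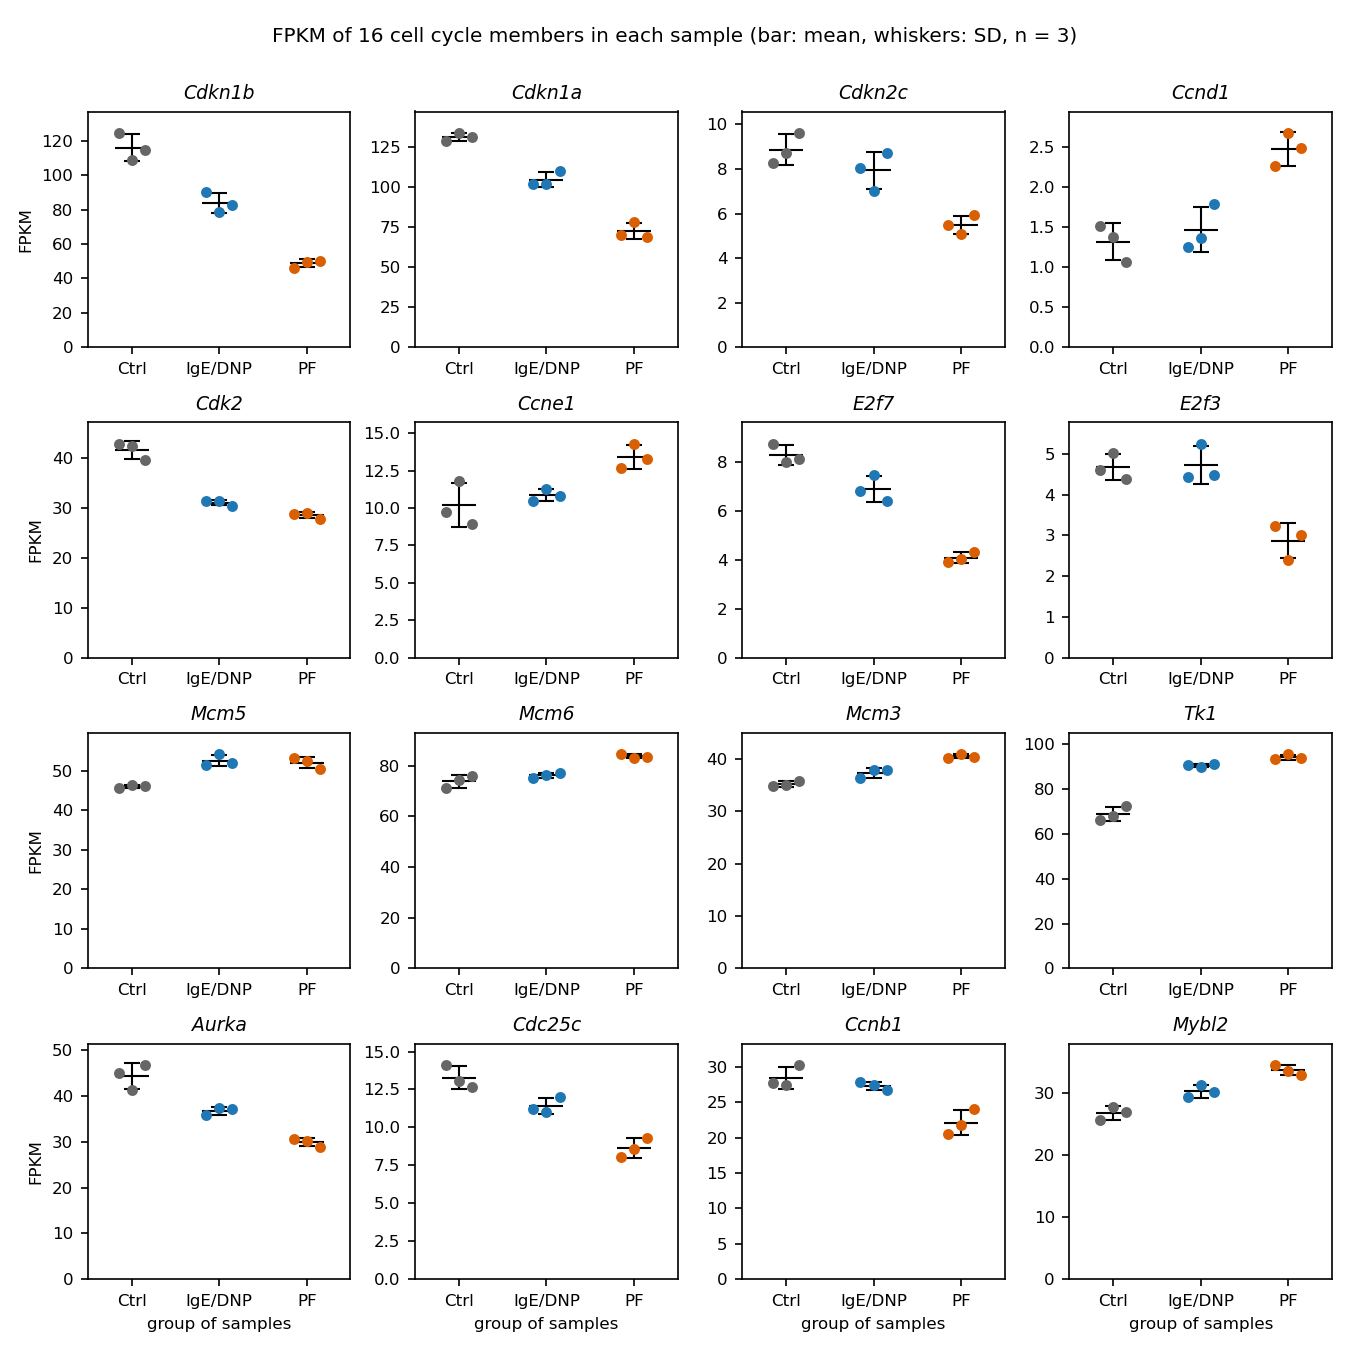
FPKM of 16 members in each sample (points, 3 per group), with the group mean as a bar and the standard deviation as whiskers, on axes that start at 0. Cdkn1b lies at 109 to 125 FPKM in Ctrl and at 46.2 to 50.4 in PF, and Tk1 lies at 66.1 to 72.4 in Ctrl and at 93.3 to 95.6 in PF.

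Across the 3 groups, 9 members had every Ctrl sample above every IgE/DNP sample and every IgE/DNP sample above every PF sample. They were Cdk2, E2f1, E2f7, E2f8, Cdc25c, Aurka, Aurkb, Cdkn1a and Cdkn1b. Of the 10504 genes with at least 1 FPKM in 3 samples, 1108 (10.5%) had this order. The reverse order held for 3 members, Mcm3, Tk1 and Mybl2, and for 596 of all genes (5.67%). With the FPKM as deposited and 6 samples a fit, 21 members (44.7%) passed the test in 0 comparisons, beside 3047 of the 10200 genes tested in all 3 (29.9%).

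Ratios of FPKM within a sample do not depend on its scaling. Summed FPKM of the 3 CDK inhibitors over that of Cdk1, Cdk2, Cdk4 and Cdk6 was 0.967, 0.848 and 0.854 in Ctrl, 0.696, 0.634 and 0.684 in IgE/DNP and 0.437, 0.445 and 0.445 in PF. The groups did not overlap, and PF was lowest. The ratio of Cdkn1b to Cdk2 in FPKM was 2.91, 2.58 and 2.9 in Ctrl, 2.89, 2.5 and 2.72 in IgE/DNP and 1.6, 1.72 and 1.81 in PF. It overlapped between Ctrl and IgE/DNP, and all PF samples were lower. Cdkn1a over Cdkn1b in FPKM was 1.03, 1.22 and 1.14 in Ctrl, 1.12, 1.3 and 1.33 in IgE/DNP and 1.52, 1.57 and 1.36 in PF. For this ratio the PF samples lay above all others, while Ctrl and IgE/DNP overlapped. Aurka over Aurkb in FPKM was 0.896, 0.855 and 0.929 in Ctrl, 0.751, 0.782 and 0.807 in IgE/DNP and 0.674, 0.708 and 0.632 in PF. Ctrl was highest and PF lowest, without overlap. Ccne1 over Ccne2 in FPKM was 2.03, 2.69 and 2.36 in Ctrl, 2.56, 3.21 and 3.05 in IgE/DNP and 3.08, 3.26 and 2.61 in PF, with overlap between all groups. Summed FPKM of the 15 licensing, fork and nucleotide genes over that of the 15 genes of G2 and mitosis was 1.73, 1.83 and 1.73 in Ctrl, 1.82, 1.79 and 1.81 in IgE/DNP and 2.01, 2.07 and 1.94 in PF. All PF samples were above the others, and Ctrl and IgE/DNP overlapped.

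Other genes of the same processes were counted likewise. Of all genes tested, 14.7% rose and 14.4% fell in IgE/DNP versus Ctrl, 18.1% and 30.7% in PF versus IgE/DNP, and 23.1% and 34.6% in PF versus Ctrl. Among 41 other replication genes, 13 rose and 3 fell (31.7% and 7.32%) in IgE/DNP versus Ctrl. In PF versus IgE/DNP 6 rose and 12 fell (14.6% and 29.3%), which turned to 14 and 6 under scaling by median ratios and was 2 and 19 under scaling to the mean sum. In PF versus Ctrl 14 rose and 8 fell (34.1% and 19.5%), which was 17 and 7 and turned to 7 and 11 under these scalings. Prim1, the primase subunit gene, had a mean of 109.7 FPKM in IgE/DNP against 77.8 in Ctrl (log2 fold change 0.49 ± 0.054, adjusted p = 0.000529). Pold2, which encodes a subunit of DNA polymerase delta, averaged 31.5 FPKM in IgE/DNP against 23.3 in Ctrl (log2 fold change 0.42 ± 0.056, adjusted p = 0.00131) and 37.7 FPKM in PF against 23.3 in Ctrl (log2 fold change 0.67 ± 0.060, adjusted p = 3.29e-05). The gene of the CDC7 kinase activator, Dbf4, averaged 22.1 FPKM in PF against 35.2 in IgE/DNP (log2 fold change -0.65 ± 0.057, adjusted p = 2.91e-05) and 22.1 FPKM in PF against 38.6 in Ctrl (log2 fold change -0.77 ± 0.092, adjusted p = 0.000155). Gins3, a gene of the GINS helicase cofactor, averaged 3.53 FPKM in PF against 5.36 in IgE/DNP (log2 fold change -0.49 ± 0.088, adjusted p = 0.00165).

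Of 19 checkpoint and fork repair genes, limma called 4 higher and 0 lower (21.1% and 0%) in IgE/DNP versus Ctrl (6 and 0 at an unadjusted p of at most 0.05). Between PF and IgE/DNP, 2 rose and 7 fell (10.5% and 36.8%), against 3 and 7, and 0 and 9, under scaling by median ratios and to the mean sum. In PF versus Ctrl 4 rose and 8 fell (21.1% and 42.1%), against 4 and 7, and 3 and 9. Wee1, whose kinase restrains CDK1, rose in IgE/DNP versus Ctrl and fell in PF versus IgE/DNP, with means of 15.1 FPKM in IgE/DNP against 11.3 in Ctrl (log2 fold change 0.39 ± 0.056, adjusted p = 0.00179) and 8.34 FPKM in PF against 15.1 in IgE/DNP (log2 fold change -0.79 ± 0.074, adjusted p = 4.36e-05). Rad54l, a recombination gene, averaged 8.38 FPKM in IgE/DNP against 6.86 in Ctrl (log2 fold change 0.26 ± 0.062, adjusted p = 0.0171). For Rad54l in IgE/DNP versus Ctrl, the adjusted p was just above 0.05 without Ctrl replicate 1 and 0.0613 without IgE/DNP replicate 2 (0.00779 to 0.0613 over the alternatives). Brca1, a gene of fork protection and repair, averaged 4.86 FPKM in PF against 8.12 in IgE/DNP (log2 fold change -0.64 ± 0.069, adjusted p = 9.60e-05) and 4.86 FPKM in PF against 8.29 in Ctrl (log2 fold change -0.66 ± 0.080, adjusted p = 0.000167). Its partner Brca2 averaged 2.51 FPKM in PF against 3.94 in Ctrl (log2 fold change -0.50 ± 0.12, adjusted p = 0.00727).

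Among 57 other mitosis genes, 56 had a value. In IgE/DNP versus Ctrl 7 rose and 10 fell (12.5% and 17.9%). Between PF and IgE/DNP, 6 rose and 27 fell (10.7% and 48.2%), and in PF versus Ctrl 7 rose and 28 fell (12.5% and 50%). Under scaling by median ratios these PF counts were 9 and 23, and 11 and 24, and under scaling to the mean sum 3 and 34, and 5 and 35. Their median log2 fold change was -0.030, -0.14 and -0.17 in the 3 comparisons and below 0 under every scaling. Spc25, a kinetochore gene, averaged 32.3 FPKM in IgE/DNP against 22.9 in Ctrl (log2 fold change 0.48 ± 0.047, adjusted p = 0.000344). Fbxo5, which encodes an inhibitor of the anaphase ligase, averaged 10.7 FPKM in IgE/DNP against 14.2 in Ctrl (log2 fold change -0.38 ± 0.066, adjusted p = 0.00387). Hjurp, which encodes the chaperone of centromeric histone, averaged 3.69 FPKM in PF against 12.8 in IgE/DNP (log2 fold change -1.56 ± 0.067, adjusted p = 7.15e-07) and 3.69 FPKM in PF against 16 in Ctrl (log2 fold change -1.86 ± 0.065, adjusted p = 5.91e-07). Plk1, the polo kinase gene of mitotic entry, averaged 19.5 FPKM in PF against 31.01 in IgE/DNP (log2 fold change -0.64 ± 0.042, adjusted p = 4.99e-06) and 19.5 FPKM in PF against 38.5 in Ctrl (log2 fold change -0.95 ± 0.051, adjusted p = 2.57e-06).

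Of 13 genes for pocket proteins, other E2F factors and MuvB subunits, 1 rose and 2 fell (7.69% and 15.4%) in IgE/DNP versus Ctrl, against 1 and 0 under scaling to the mean sum. Between PF and IgE/DNP, 1 rose and 2 fell (7.69% and 15.4%), against 2 and 2, and 0 and 6, under scaling by median ratios and to the mean sum. In PF versus Ctrl 3 rose and 5 fell (23.1% and 38.5%), against 3 and 4, and 2 and 6. Rbl1, a pocket protein gene, averaged 8.93 FPKM in IgE/DNP against 7.41 in Ctrl (log2 fold change 0.24 ± 0.063, adjusted p = 0.0218). For Rbl1 in IgE/DNP versus Ctrl, the adjusted p was 0.0502 with no filter on low values, 0.0624 without Ctrl replicate 2, 0.0683 without IgE/DNP replicate 1, 0.0611 without IgE/DNP replicate 2 and 0.0538 without IgE/DNP replicate 3 (0.0199 to 0.0683 over the alternatives). Lin54, the DNA-binding subunit gene of MuvB, averaged 4.65 FPKM in PF against 11.5 in IgE/DNP (log2 fold change -1.15 ± 0.057, adjusted p = 1.22e-06) and 4.65 FPKM in PF against 11.97 in Ctrl (log2 fold change -1.20 ± 0.064, adjusted p = 2.50e-06). Lin9, another MuvB gene, averaged 8.20 FPKM in IgE/DNP against 9.75 in Ctrl (log2 fold change -0.22 ± 0.068, adjusted p = 0.0379) and 6 FPKM in PF against 8.20 in IgE/DNP (log2 fold change -0.39 ± 0.063, adjusted p = 0.000921). For Lin9 in IgE/DNP versus Ctrl, the adjusted p was 0.0817 with no filter on low values, 0.056 under scaling to the mean sum, 0.106 without Ctrl replicate 1, 0.0577 without Ctrl replicate 2, 0.0552 without IgE/DNP replicate 1, 0.118 without IgE/DNP replicate 2 and 0.0816 without IgE/DNP replicate 3 (0.0226 to 0.118 over the alternatives).

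Of 4 other genes named as CDK inhibitors, Cdkn1c was at most 0.07 FPKM and Cdkn2a at most 0.3. The other 2, Cdkn2b and Cdkn3, were abundant enough to test. Limma called 0 of the 2 in either direction in IgE/DNP versus Ctrl (1 higher and 0 lower at an unadjusted p of at most 0.05). Cdkn2b, an inhibitor of CDK4 and CDK6, averaged 6.11 FPKM in PF against 11.8 in IgE/DNP (log2 fold change -0.85 ± 0.066, adjusted p = 1.44e-05) and 6.11 FPKM in PF against 10.4 in Ctrl (log2 fold change -0.68 ± 0.080, adjusted p = 0.000151). In PF versus IgE/DNP, Cdkn3 was called higher under scaling by median ratios alone. Of 9 other cyclin and CDK genes tested, 4 rose and 1 fell (44.4% and 11.1%) in IgE/DNP versus Ctrl. Between PF and IgE/DNP, 1 rose and 3 fell (11.1% and 33.3%), against 1 and 2, and 0 and 6, under scaling by median ratios and to the mean sum. Between PF and Ctrl, 3 rose and 2 fell (33.3% and 22.2%), against 3 and 2, and 2 and 3. Cdk5, a kinase gene known best from neurons, averaged 21.7 FPKM in IgE/DNP against 11.2 in Ctrl (log2 fold change 0.92 ± 0.13, adjusted p = 0.0018) and 23.9 FPKM in PF against 11.2 in Ctrl (log2 fold change 1.05 ± 0.13, adjusted p = 0.000199). Mnat1, an assembly factor gene of the CDK-activating kinase, averaged 56.98 FPKM in IgE/DNP against 39.8 in Ctrl (log2 fold change 0.51 ± 0.055, adjusted p = 0.000516). Ccng2, a cyclin gene linked to arrest, averaged 30.98 FPKM in PF against 47.8 in IgE/DNP (log2 fold change -0.61 ± 0.047, adjusted p = 1.37e-05) and 30.98 FPKM in PF against 67.1 in Ctrl (log2 fold change -1.09 ± 0.049, adjusted p = 1.35e-06). Cdk7, the kinase gene of that CDK-activating complex, averaged 22.6 FPKM in PF against 34.3 in IgE/DNP (log2 fold change -0.58 ± 0.037, adjusted p = 4.38e-06).

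Of 19 genes of the APC/C and SCF ubiquitin ligases, 5 rose and 4 fell (26.3% and 21.1%) in IgE/DNP versus Ctrl, against 5 and 3 under both other scalings. Ccnf was counted both here and among the other mitosis genes. Between PF and IgE/DNP, 3 rose and 5 fell (15.8% and 26.3%), against 3 and 5, and 2 and 5, under scaling by median ratios and to the mean sum. Between PF and Ctrl, 5 rose and 5 fell (26.3% and 26.3%), against 6 and 3, and 5 and 6. Cul1, the SCF scaffold gene, averaged 71.7 FPKM in IgE/DNP against 55.4 in Ctrl (log2 fold change 0.37 ± 0.048, adjusted p = 0.00111). Anapc7, an APC/C subunit gene, averaged 19.7 FPKM in IgE/DNP against 16.1 in Ctrl (log2 fold change 0.28 ± 0.055, adjusted p = 0.00749). Ccnf, the gene of cyclin F, averaged 1.85 FPKM in PF against 3.25 in IgE/DNP (log2 fold change -0.57 ± 0.075, adjusted p = 0.000307) and 1.85 FPKM in PF against 4.00 in Ctrl (log2 fold change -0.81 ± 0.072, adjusted p = 3.33e-05). Fbxw7, the F-box gene that targets cyclin E, averaged 14.6 FPKM in PF against 21.7 in IgE/DNP (log2 fold change -0.54 ± 0.044, adjusted p = 1.93e-05) and 14.6 FPKM in PF against 20.5 in Ctrl (log2 fold change -0.46 ± 0.052, adjusted p = 0.00012). Of 12 p53 target genes tested, 2 rose and 6 fell (16.7% and 50%) in IgE/DNP versus Ctrl. Ccng1 was counted both here and among the other cyclin and CDK genes. Between PF and IgE/DNP, 1 rose and 6 fell (8.33% and 50%), against 3 and 6, and 0 and 6, under scaling by median ratios and to the mean sum. Between PF and Ctrl, 2 rose and 6 fell (16.7% and 50%), against 2 and 5, and 2 and 8. Plk3, a stress kinase gene, averaged 43.4 FPKM in IgE/DNP against 17.4 in Ctrl (log2 fold change 1.27 ± 0.037, adjusted p = 5.35e-07) and 26.2 FPKM in PF against 43.4 in IgE/DNP (log2 fold change -0.71 ± 0.035, adjusted p = 1.24e-06). Tp53inp1, a stress response gene, averaged 22.95 FPKM in PF against 43.4 in IgE/DNP (log2 fold change -0.89 ± 0.038, adjusted p = 6.98e-07) and 22.95 FPKM in PF against 66.1 in Ctrl (log2 fold change -1.48 ± 0.068, adjusted p = 1.43e-06). Gadd45a, a growth arrest gene, averaged 952 FPKM in PF against 1891 in Ctrl (log2 fold change -0.99 ± 0.046, adjusted p = 1.45e-06).

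Promoters of 33 members were taken from RefSeq on build GRCr8, as the 250 bases before to 50 after each gene start. Absent from that table were Aurkb, Ccna2, Ccnd1, Ccnd2, Ccne2, Cdc6, Cdk6, E2f1, E2f2, E2f8, Foxm1, Mcm4, Orc1 and Rrm2. Both strands were searched for 3 motifs. The E2F site was read as TTTCCCGC or, in its other form, as TTTGGCGC, the CHR element as TTTGAA or as TTCGAA, and the CCAAT box as its letters CCAAT. The CHR form TTCGAA is its own reverse complement. An E2F site shared bases with another motif in 0 member promoters, and a CHR element with a CCAAT box in 1. A match is a description of the letters and not a measured binding site.

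An E2F site lay in 9 of 33 member promoters (27.3%), beside 485 of all 33469 promoters (1.45%) and 350 of the 13982 promoters of genes with a value (2.5%). All 9 belonged to G1 and S phase members, 9 of 16 (56.2%), and 6 of these to the 8 licensing and fork promoters (75%). These 6 were Mcm3, Mcm5, Mcm6, Mcm7, Cdt1 and Gmnn, and the others were Tyms, Cdc25a and E2f3. None of the 12 promoters from the list for G2 and mitosis held it in either form searched (0 of 12). Other forms of the E2F site were not searched. A CHR element lay in 12 of 33 member promoters (36.4%), beside 6608 of all promoters (19.7%). It was in 8 of the 12 promoters from G2 and mitosis (66.7%), those of Ccnb2, Cdk1, Cdc20, Cdc25b, Cdc25c, Bub1b, Mki67 and Top2a, and in 4 of the 16 from G1 and S phase (25%). A CCAAT box lay in 21 of 33 (63.6%), beside 12549 of all promoters (37.5%), with 8 of 12 in G2 and mitosis and 11 of 16 (68.8%) in G1 and S phase.

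The promoters of Mcm3, Mcm5 and Mcm6, which all hold an E2F site and rose in PF versus Ctrl with the FPKM as deposited, show these letters in place. Among the other holders of the site, Cdc25a rose in that comparison, E2f3 fell, and Mcm7, Cdt1, Gmnn and Tyms did not pass the test. Mcm2, Ccne1, Tk1, Bub1b and Mybl2 rose there without an E2F site in the forms searched. Mcm3 is at chr9:30733697-30733996 on the minus strand, Mcm5 is at chr19:13488563-13488862 on the plus strand and Mcm6 is at chr13:42404303-42404602 on the minus strand of GRCr8. Each is written from the upstream end along the gene's strand, with capitals for matches to the E2F, CHR and CCAAT motifs on either strand.
Mcm3: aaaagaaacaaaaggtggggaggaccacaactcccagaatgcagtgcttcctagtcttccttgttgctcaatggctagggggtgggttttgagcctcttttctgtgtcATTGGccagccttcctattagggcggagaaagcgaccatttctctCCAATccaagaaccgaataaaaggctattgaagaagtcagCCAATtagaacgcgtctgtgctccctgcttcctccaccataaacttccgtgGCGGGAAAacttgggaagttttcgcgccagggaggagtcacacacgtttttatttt
Mcm5: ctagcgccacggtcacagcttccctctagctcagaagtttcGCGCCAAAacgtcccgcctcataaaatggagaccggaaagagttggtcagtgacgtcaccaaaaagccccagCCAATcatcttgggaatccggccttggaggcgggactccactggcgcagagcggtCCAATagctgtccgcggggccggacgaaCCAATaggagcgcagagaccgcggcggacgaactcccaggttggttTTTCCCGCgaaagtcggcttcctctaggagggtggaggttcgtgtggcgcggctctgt
Mcm6: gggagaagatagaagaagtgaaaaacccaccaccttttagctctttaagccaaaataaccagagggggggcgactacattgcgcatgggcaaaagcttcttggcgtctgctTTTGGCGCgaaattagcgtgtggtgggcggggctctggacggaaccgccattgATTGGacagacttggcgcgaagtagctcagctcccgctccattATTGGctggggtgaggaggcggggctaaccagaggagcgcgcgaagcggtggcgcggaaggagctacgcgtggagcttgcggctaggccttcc

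From G2 and mitosis, Bub1b and Top2a are shown because both hold a CHR element, while Bub1b rose in IgE/DNP versus Ctrl and Top2a fell in PF versus IgE/DNP. Bub1b is at chr3:126016817-126017116 on the plus strand and Top2a is at chr10:84473044-84473343 on the minus strand, with the same use of capitals.
Bub1b: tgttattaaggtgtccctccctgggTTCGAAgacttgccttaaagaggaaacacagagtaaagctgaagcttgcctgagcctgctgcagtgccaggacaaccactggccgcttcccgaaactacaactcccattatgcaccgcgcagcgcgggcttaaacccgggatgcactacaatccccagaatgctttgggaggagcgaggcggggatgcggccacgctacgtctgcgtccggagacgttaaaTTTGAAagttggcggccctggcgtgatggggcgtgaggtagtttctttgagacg
Top2a: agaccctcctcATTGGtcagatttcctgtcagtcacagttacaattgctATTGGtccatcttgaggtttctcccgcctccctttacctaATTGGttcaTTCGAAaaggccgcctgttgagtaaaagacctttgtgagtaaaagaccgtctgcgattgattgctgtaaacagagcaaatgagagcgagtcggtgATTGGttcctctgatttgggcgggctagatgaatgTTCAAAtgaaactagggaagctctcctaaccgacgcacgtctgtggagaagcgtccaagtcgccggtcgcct

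E2f7 and Cdkn1b, which fell in all 3 comparisons, hold a CCAAT box and neither of the other motifs. Among the other members that fell in all 3, Cdk2 also holds only a CCAAT box. Aurka and Cdkn1a hold none of the motifs, and Cdc25c holds a CHR element and CCAAT boxes. E2f7 is at chr7:48036653-48036952 on the plus strand and Cdkn1b is at chr4:169491254-169491553 on the plus strand, written in the same way.
E2f7: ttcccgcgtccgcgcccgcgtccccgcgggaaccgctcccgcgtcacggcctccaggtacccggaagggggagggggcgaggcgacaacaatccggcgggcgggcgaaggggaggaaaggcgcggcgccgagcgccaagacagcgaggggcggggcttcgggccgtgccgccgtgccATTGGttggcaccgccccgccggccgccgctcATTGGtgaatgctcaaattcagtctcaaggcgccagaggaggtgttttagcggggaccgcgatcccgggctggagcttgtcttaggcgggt
Cdkn1b: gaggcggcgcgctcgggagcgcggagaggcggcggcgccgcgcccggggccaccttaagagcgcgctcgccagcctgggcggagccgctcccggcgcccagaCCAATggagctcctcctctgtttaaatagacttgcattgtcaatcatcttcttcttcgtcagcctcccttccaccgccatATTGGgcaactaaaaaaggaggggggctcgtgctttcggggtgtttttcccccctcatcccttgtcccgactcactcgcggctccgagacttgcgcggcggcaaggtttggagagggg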

How the data were processed

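RNA sequencing of 9 RBL-2H3 samples (3 Ctrl, 3 IgE/DNP, 3 PF) was used as deposited, 1 value per gene and sample. The heading names no unit, and the deposited values were read as FPKM, a unit relative to gene length and mapped total. The submitters' processing notes name HISAT2 2.0.4, Bowtie2 2.2.5, RSEM 1.2.12 and build rn6. The study names the BGISEQ platform, while the labels name Illumina library protocols. Read depth is not given.

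The authors used DESeq2, which needs counts. The files hold FPKM, so here limma 3.58.1 in R 4.3.3 (lmFit, eBayes with a trend) was run on log2 values with a pseudocount of 1. Each comparison used its own 6 samples and the genes with at least 1 FPKM in 3 of them. P-values were adjusted by Benjamini and Hochberg over all genes tested, with a threshold of 0.05. The smallest p of an exact permutation test with 3 samples a group is 0.1, so none was used. The code was tested on simulated data. Genes were matched by symbol. The members and lists were chosen with earlier results of these data known.

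Values in every sample were printed for up to 4 called members with the largest change per list and comparison and the 2 of highest mean. Members called elsewhere were added, and of other lists up to 2 such genes were named per comparison. Alternatives were a pseudocount of 0.1, no filter, all 3 groups in 1 fit, a replicate block, scaling by median ratios, scaling to the mean sum, limma without a trend, a threshold of 0.01, each sample left out in turn, and, chosen after seeing the data, PF replicate 1 as the one PF sample. Lists covered other replication, checkpoint, mitosis, pocket protein, CDK inhibitor, cyclin, ubiquitin ligase and p53 target genes, and markers of mast, T, B, macrophage, fibroblast, epithelial, endothelial and erythroid cells. Promoters came from RefSeq on GRCr8, while the submitters name rn6. Cdkn2d was not analysed here.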

Additional observations from a re-analysis of the deposited data

How the results depend on the processing

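Over the alternatives, 0 members called in a comparison reversed direction. With each sample left out in turn, members called ran from 7 to 12 in IgE/DNP versus Ctrl, 14 to 19 in PF versus IgE/DNP and 22 to 25 in PF versus Ctrl, and all genes called from 2099 to 2736, 4138 to 4796 and 5147 to 5541. At a threshold of 0.01, all genes called in IgE/DNP versus Ctrl were 1469 (817 higher and 652 lower), by construction of the stricter threshold. With PF replicate 1 as the one PF sample, chosen after seeing the data and assumed to vary like the other group, members called were 14 in PF versus IgE/DNP and 17 in PF versus Ctrl, and all genes called 3633 and 4022. With a replicate block, members called were 8 in IgE/DNP versus Ctrl, 15 in PF versus IgE/DNP and 26 in PF versus Ctrl, and all genes called 2697, 4675 and 6009. Called without the block but not with it were Cdc25c and E2f7 in IgE/DNP versus Ctrl and Cdk2, E2f2, E2f8 and Mcm3 in PF versus IgE/DNP, and Tyms in PF versus Ctrl was called with it but not in the same fit without it. Correlations of samples with the same number in the replicate block check ran from -0.0739 to 0.0514, -0.0822 to 0.00049 and 0.083 to 0.189. The labels pair no samples, so whether samples with the same number belong together is unknown. In a window of 150 bases, shares fell by construction of the shorter window: the CCAAT box lay in 42.4% of member promoters against 63.6% (all promoters 21.6% against 37.5%), the E2F site in 18.2% against 27.3% (0.771% against 1.45%) and the CHR element in 30.3% against 36.4% (8.86% against 19.7%). The unknown read depth limits what can be said of genes near 1 FPKM, such as E2f2 and Ccnd1, and with 3 samples a group small changes may be missed.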

Other observations

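The PF replicate with the highest FPKM of the 3 was replicate 1 for 12 members, replicate 2 for 15 and replicate 3 for 20. Over all 10504 genes with at least 1 FPKM in 3 samples, these numbers were 3135, 3339 and 4030. The labels give these replicates antigen times of 4 h, 5 h and 6 h in the treatment field.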
